A study of Mus musculus with 12 samples.

Results

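The miR-132 and miR-212 cluster was followed through 12 small RNA libraries of mouse skin and skin tumours. The members are every row of miR-132 and miR-212 in the deposited table, listed there as mmu-mir-132-3p, mmu-mir-132-5p, mmu-mir-212-3p and mmu-mir-212-5p. These are 4 of 1251 rows. The members were chosen by name and not by their values, although earlier results of these data were known. All mice were C57Bl6. Untreated dorsal skin came from mice aged 4 weeks, either wild type (WT, n = 3) or TAp63-/- (knockout, n = 3). TAp63 denotes the isoforms of p63, a transcription factor related to p53, with a transactivation domain. Cutaneous squamous cell carcinoma (SCC) came from WT (n = 2) and TAp63-/- mice (n = 4) older than 35 weeks that had been exposed long term to ultraviolet radiation, at 2.5 kJ/m2 3 times a week. Skin and tumours therefore differ in age and in exposure as well as in tissue, and these cannot be told apart.

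A miRNA hairpin is cut into a short duplex whose strands are named 5p and 3p for their side of the stem. Usually the more abundant strand, the guide, is kept by an Argonaute protein, pairs with messenger RNAs through its seed (bases 2 to 8) and lowers their output. The miR-132 and miR-212 hairpins lie side by side and are known as targets of the cAMP-responsive factor CREB. They are known for roles in neurons and in blood vessel growth, and miR-132 is known in skin for its rise in keratinocytes during wound healing, where it promotes their proliferation and restrains inflammation. No wound was sampled here, so the link to wounding was not measured.

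The RefSeq mature sequences are shown because the 3p arms share a seed and the 5p arms do not. All 4 members matched RefSeq by name (build GRCm38.p6). Capitals mark the seed.

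miR-132-3p: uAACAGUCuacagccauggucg
miR-212-3p: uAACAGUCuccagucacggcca
miR-132-5p: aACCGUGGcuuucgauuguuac
miR-212-5p: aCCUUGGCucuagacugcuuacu

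Both 3p arms have 22 bases, and 17 are identical in an ungapped comparison, including the first 9. Counted from 1 at the 5′ end, with the base of miR-132-3p first, the differences are A10C, C14U, U17C, U20C and G22A. The 5p arms have only 9 of 22 compared bases in common. Among the 1738 mature miRNAs of the RefSeq table, 2 carry the AACAGUC seed, and they are the 3p members. None besides miR-132-5p carries its seed ACCGUGG, and none besides miR-212-5p carries CCUUGGC.

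In GRCm38.p6, miR-212 lies at chr11:75173388-75173478 and miR-132 at chr11:75173682-75173747, both on the plus strand with 203 bases between them. Both lie in 1 intron (75172598 to 75173977) of 1700016P03Rik, which GENCODE annotates as a processed transcript on the same strand. The hairpins are shown with the mature arms in capitals, 5p first, since the results below turn on the balance of the arms.

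Mir132: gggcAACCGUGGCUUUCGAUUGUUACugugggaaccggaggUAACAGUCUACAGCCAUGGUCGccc
Mir212: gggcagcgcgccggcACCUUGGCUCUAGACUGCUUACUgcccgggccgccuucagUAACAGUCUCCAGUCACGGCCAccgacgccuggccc

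The values are the authors' normalized log2 levels. Each library bottoms out at 3.32, that is log2 of 10, where many rows are tied, and this value is called the floor. Depth per library is unknown, and 370 to 465 miRNAs were above the floor in skin, 402 to 420 in WT SCC and 432 to 545 in knockout SCC. Of the 1251 rows, 544 were above the floor in at least 2 libraries and were tested with limma, and all 4 members were among them. An adjusted p (Benjamini-Hochberg over the 544) under 0.05 is named a call. In bulk tissue, fewer cells of a type and less RNA per cell cannot be told apart. Replicates are numbered in accession order, and the labels do not state that each is a separate mouse, so p-values cover only the scatter among these samples, part of which may be technical.

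Averaged over the genotypes, tumours had more miR-132-3p and miR-212-3p than skin, and less miR-212-5p. The arms of miR-212 thus moved in opposite directions. miR-132-5p was above the floor in no skin library and in 5 of 6 tumours. It passed the filter on low values only through the tumours and had to differ, so its comparison with skin is described and not counted as a call. Of the other members 2 were called higher, where 20.4% of all tested miRNAs were, and 1 was called lower, where 21.5% were. These 3 arms of 2 neighbouring hairpins are too few to set their shares apart from that background. The background shares, here and below, still include miRNAs at the floor in every skin library, so they follow a looser rule than the count of members. Counts of tumours beyond all skin libraries are given below for single arms with no such share, as descriptions. The median change of all tested miRNAs was 0.04.

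miR-132-3p, the strand known as the guide of miR-132, was the most abundant member in every library. Its log2 levels in WT skin were 8.10, 7.86 and 7.58, and in knockout skin 6.67, 7.84 and 8.08. In WT SCC they were 8.44 and 8.65, and in knockout SCC 7.88, 8.80, 8.65 and 8.38. Of the 6 tumours, 5 lay above all 6 skin libraries, and knockout SCC replicate 1 lay within the skin range. Its place among all miRNAs of a library ran from 204 to 267 in skin and from 176 to 214 in SCC, where 1 is the most abundant.

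The averaged change of miR-132-3p was 0.80 ± 0.28 (log2, SE), or 1.74-fold (limma, adjusted p = 0.0413). An exact two-sided permutation test of the 6 tumours against the 6 skin libraries, added after seeing the data and given unadjusted for each arm, gave p = 0.00649. The limma call rests on few libraries. It held without knockout skin replicate 2 (adjusted p = 0.0472) or 3 (0.0269) or knockout SCC replicate 1 (0.0271), and ended when any 1 of the other 9 libraries was left out (0.0515 to 0.112). Library quality weights also ended it (0.65, adjusted p = 0.0874). Knockout skin replicate 1, the lowest library at 6.67, was also the one with the fewest miRNAs above the floor (370). Without it the change was 0.58 (adjusted p = 0.0746).

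miR-132-5p, the partner strand, was at the floor in all 6 skin libraries. In WT SCC its log2 levels were 4.71 and 4.81, and in knockout SCC they were at the floor in replicate 1 and 3.93, 3.79 and 4.36 in the others. Thus 5 of 6 tumours had a level above the floor and no skin library did. The 2 WT tumours, with 402 and 420 miRNAs above the floor, were within the skin range of that number (370 to 465). Knockout SCC replicates 2, 3 and 4 had 489, 545 and 476, above that range, and replicate 1 had 432. Whether this number bears on the detection of miR-132-5p was not tested.

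The fitted averaged change of miR-132-5p, 0.98 on the log2 scale, is given as a description with no test. All 6 skin libraries and 1 tumour are at the floor, so it is neither an unbiased size nor a bound, and the skin libraries have no spread from which to judge it.

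miR-212-3p shares its seed with miR-132-3p and was far less abundant. Its log2 levels in WT skin were 5.34, 5.01 and the floor, and in knockout skin the floor, 4.36 and 4.71. In WT SCC they were 5.31 and 6.19, and in knockout SCC 5.74, 6.01, 5.42 and 6.36. Of the 6 tumours, 5 lay above all skin libraries, and WT SCC replicate 1 lay just under WT skin replicate 1. The skin libraries at the floor, WT replicate 3 and knockout replicate 1, had 403 and 370 miRNAs above it.

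The averaged change of miR-212-3p was 1.47 ± 0.42 (log2, SE), or 2.77-fold (limma, adjusted p = 0.0172; exact two-sided permutation p = 0.00433). The call ended without WT SCC replicate 2 (1.25, adjusted p = 0.0718) and with library quality weights (1.25, adjusted p = 0.0521). It held without knockout skin replicate 1 (1.27, adjusted p = 0.0389) and without WT skin replicate 3 (1.16, adjusted p = 0.0292).

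miR-212-5p went the other way. Its log2 levels in WT skin were 6.79, 6.50 and 5.04, and in knockout skin 5.68, 5.53 and 5.67. In WT SCC they were 4.32 and 5.16, and in knockout SCC the floor, 5.04, 4.50 and 4.70. Of the 6 tumours, 4 lay below all skin libraries. WT SCC replicate 2 and knockout SCC replicate 2 overlapped with WT skin replicate 3, the lowest skin library.

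The averaged change of miR-212-5p was -1.30 ± 0.41 (log2, SE), or 2.47-fold lower (limma, adjusted p = 0.0247; exact two-sided permutation p = 0.00649). The call ended without WT skin replicate 1 (-1.13, adjusted p = 0.0590), WT skin replicate 2 (-1.21, adjusted p = 0.0594) or WT SCC replicate 1 (-1.09, adjusted p = 0.107).

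**Figure D1:**
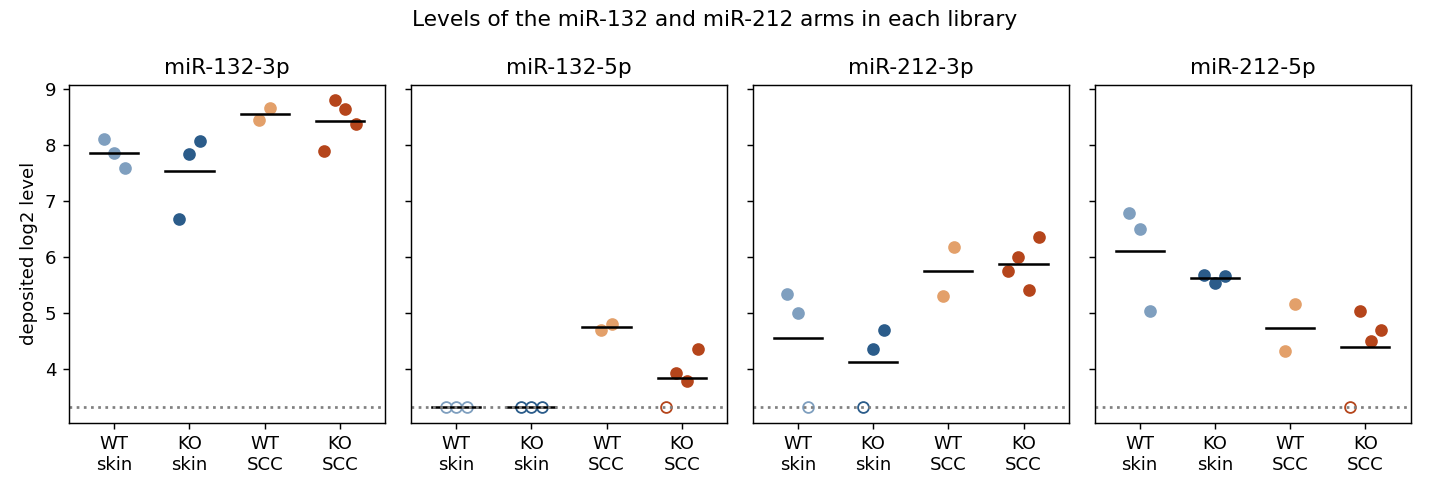
Deposited log2 level of each arm (y axis) in each library, by group (KO, TAp63-/-). Points are libraries, open points are at the floor (dotted line), and bars are group means. miR-132-3p, miR-132-5p and miR-212-3p are mostly higher in SCC, and miR-212-5p is mostly lower, with 4 of 6 tumours below all skin libraries.

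The arms of 1 hairpin are read in the same library, so their difference does not change when a whole library is scaled up or down. The deposited levels look normalized by rank, which is not such a scaling, so the difference can still depend on the normalization. For miR-212, the log2 level of 3p minus that of 5p in WT skin was -1.45 and -1.50, and at most -1.72 in replicate 3, where 3p was at the floor. In knockout skin it was at most -2.36 in replicate 1, for the same reason, and -1.17 and -0.96 in the other two. In WT SCC the difference was 0.99 and 1.02. In knockout SCC it was at least 2.42 in replicate 1, where 5p was at the floor, and 0.96, 0.92 and 1.66 in the others. The 5p arm thus led in all 6 skin libraries and the 3p arm in all 6 tumours, with no overlap.

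Over libraries with both arms above the floor, the difference was -1.27 ± 0.25 in skin (SD, n = 4) and 1.11 ± 0.31 in SCC (SD, n = 5). These means were 2.38 apart on the log2 scale. The exact two-sided permutation test gave p = 0.00794, the smallest this design allows (0.0159 adjusted over the 2 within-library differences tested). With the 3 floor libraries kept at the floor value, the change was 2.86 (exact p = 0.00216). Shuffling within genotype only gave an exact p of 0.0167.

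The 3p minus 5p difference was also fitted with limma over all 147 hairpins whose arms were both tested, a step chosen after seeing the data. This fit used all 12 libraries, with a level at the floor entered as the floor value. For miR-212, the differences of WT skin replicate 3, knockout skin replicate 1 and knockout SCC replicate 1 are therefore bounds. The fitted sizes, p-values and rank rest partly on them. For miR-212 the averaged change of 3p minus 5p was 2.78 ± 0.34 (log2, SE; adjusted p = 1.5e-05 over the 147). It ranked 5th by size among the 147, where 23.1% of hairpins were called toward 3p and the median change was 0.07. It was 2.56 ± 0.52 in WT mice (adjusted p = 0.00178, where 18.4% were called toward 3p) and 2.99 ± 0.43 in knockout mice (adjusted p = 2.2e-04, again against 18.4%). The genotypes did not differ detectably in it (interaction 0.43, 95% interval -0.999 to 1.86, adjusted p = 0.945, where 2.72% of hairpins were called). Leaving out each of the 12 libraries in turn gave 2.56 to 2.91, with adjusted p-values of 1.9e-05 to 4.0e-04.

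A changed balance of the arms was common, with 58 of the 147 hairpins (39.5%) called in either direction, 34 of them toward 3p. The 147 include hairpins with an arm at the floor in a whole tissue, such as miR-132. They also include hairpins with identical fitted values, such as miR-299a and miR-299b. Shares and ranks over the 147 are thus not of independent hairpins that could all be measured. Opposite calls of the arms themselves were fewer. Both arms were called in the same direction in 34 of the 147 hairpins and in opposite directions in 3, which were miR-212, miR-324 and miR-30e. miR-324 was at 1.19 for 3p and -0.83 for 5p, and miR-30e at -0.82 for 3p and 0.76 for 5p; these hairpins are named because of this count, after their values were seen. miR-212 was the only hairpin of the 147 whose leading arm was 5p in every skin library and 3p in every tumour, and none went the reverse way.

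**Figure D2:**
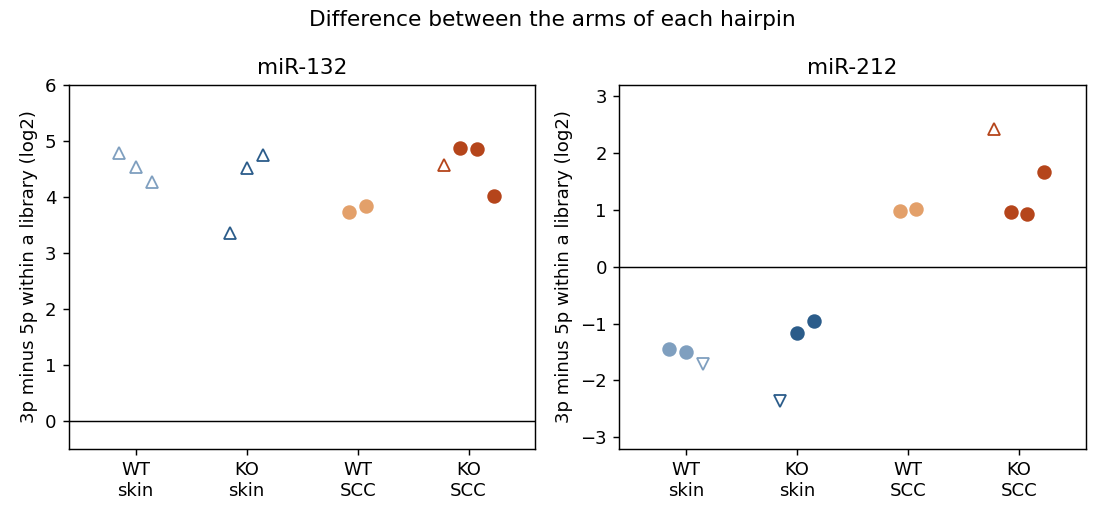
Log2 level of 3p minus 5p within each library (y axis) for miR-132 and miR-212, by group. Filled circles have both arms above the floor, triangles pointing up are lower bounds (5p at the floor) and triangles pointing down are upper bounds (3p at the floor). For miR-212 all skin libraries lie below 0 and all tumours above it, and for miR-132 every library lies above 0.

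The arms of miR-132 kept their order. In WT skin, 3p exceeded 5p by at least 4.78, 4.54 and 4.26 on the log2 scale, and in knockout skin by at least 3.35, 4.52 and 4.76, since 5p was at the floor. In WT SCC the difference was 3.73 and 3.84. In knockout SCC it was at least 4.56 in replicate 1, and 4.87, 4.85 and 4.01 in the others. In linear terms 3p was 13.3 to 29.2 times as high as 5p in the 5 tumours with both arms above the floor. The fitted change was -0.19 ± 0.29 (log2, SE; adjusted p = 0.625), but with skin known only as lower bounds, a change in this balance could not be measured.

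**Figure D3:**
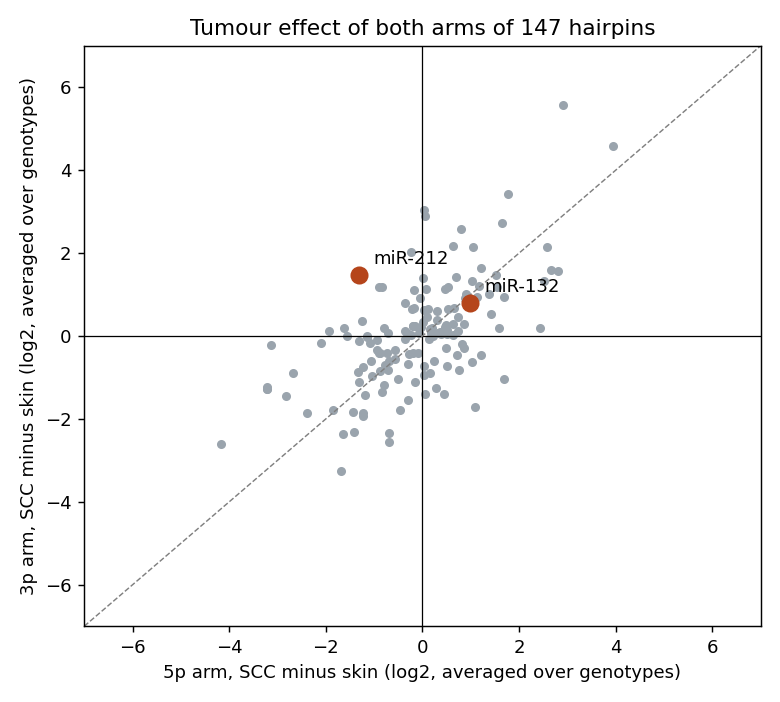
Averaged tumour effect (SCC minus skin, log2) of the 5p arm (x axis) and of the 3p arm (y axis) for 147 hairpins, with the dashed line marking equal change. miR-132 (0.98, 0.80) lies near the dashed line, but its 5p value rests on skin at the floor, so equal change of its arms is not shown. miR-212 (-1.30, 1.47) lies in the quadrant where 5p is lower and 3p higher.

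Because the 3p arms share a seed, their linear levels were also added within each library. A level at the floor was counted as 0 in this sum, so the sums of WT skin replicate 3 and knockout skin replicate 1 are those of miR-132-3p alone and could be up to 10 higher. The sum was 315, 264 and 192 in WT skin and 102, 250 and 296 in knockout skin. It was 386 and 475 in WT SCC, and 290, 509, 443 and 415 in knockout SCC. Knockout SCC replicate 1 overlapped with skin, and the other 5 tumours exceeded all skin libraries. miR-132-3p made up 80.2% to 90.4% of the sum in tumours and 87.1% to 91.8% in the 4 skin libraries where miR-212-3p was above the floor.

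The distance between the 3p arms was less clear. Where both were above the floor, miR-132-3p exceeded miR-212-3p by 3.11 ± 0.36 in skin (SD, n = 4) and by 2.63 ± 0.50 in SCC (SD, n = 6) on the log2 scale. The groups differed by -0.49 (exact two-sided permutation p = 0.148). With the floor libraries kept at the floor value, the change was -0.72 (exact p = 0.0411). The 5p arms were in another order. In skin miR-212-5p was above the floor in 6 of 6 libraries and miR-132-5p in none, and in tumours with both above the floor they differed by -1.11 to 0.39 (miR-132-5p minus miR-212-5p, log2).

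Within each genotype the same directions were seen, with fewer calls. In WT mice, where 8.82% of tested miRNAs were called higher and 9.38% lower, none of the 3 members with levels above the floor in skin was called. limma gave 0.70 ± 0.43 for miR-132-3p (adjusted p = 0.309), 1.19 ± 0.65 for miR-212-3p (adjusted p = 0.248) and -1.37 ± 0.62 for miR-212-5p (adjusted p = 0.163). The value of miR-212-3p moved to 0.57 without WT skin replicate 3 and to 0.75 without WT SCC replicate 2, while miR-132-5p was at the floor in 3 of 3 skin libraries and above it in 2 of 2 tumours. With 2 tumours, the 95% interval for miR-132-3p in WT ran from -0.25 to 1.65.

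In knockout mice, miR-212-3p was the 1 member called higher (1.75 ± 0.55, or 3.37-fold, limma adjusted p = 0.0295), where 16.0% of tested miRNAs were called higher and 18.2% lower. Its call ended without knockout skin replicate 1 (1.35, adjusted p = 0.121) or 2 (1.87, adjusted p = 0.0560), without knockout SCC replicate 2 (1.71, adjusted p = 0.0525) or 4 (1.59, adjusted p = 0.0563), and with library quality weights (1.60, adjusted p = 0.0554). Not called were miR-132-3p (0.90 ± 0.36, adjusted p = 0.0789) and miR-212-5p (-1.24 ± 0.52, adjusted p = 0.0898). miR-132-3p was called without knockout SCC replicate 1 (1.08, adjusted p = 0.0462) or without knockout skin replicate 3 (1.17, adjusted p = 0.0490). miR-132-5p was above the floor in 3 of 4 tumours and in none of the 3 skin libraries.

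Loss of TAp63 was not followed by a called change in any member. In skin, limma called 0 of 544 miRNAs (0%) between knockout and WT, with 31 at an unadjusted p under 0.05. The differences there were -0.32 for miR-132-3p (95% interval -1.17 to 0.53), -0.43 for miR-212-3p (-1.71 to 0.85) and -0.49 for miR-212-5p (-1.71 to 0.74), and miR-132-5p was at the floor in both genotypes. Differences of 2-fold (1 on the log2 scale) thus lie within these 3 intervals, on the lower side.

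In tumours, limma called 1 of 544 miRNAs (0.184%) between the genotypes, and it was no member. The knockout minus WT differences were -0.12 for miR-132-3p (95% interval -1.02 to 0.78), 0.14 for miR-212-3p (-1.22 to 1.49) and -0.35 for miR-212-5p (-1.65 to 0.95). Of the members, miR-132-5p had the largest difference. Its level was 4.76 ± 0.07 in WT SCC (SD, n = 2) and 3.85 ± 0.43 in knockout SCC (SD, n = 4), with knockout replicate 1 at the floor. Both WT tumours lay above all 4 knockout tumours. How many of all tested miRNAs separate these small groups was not counted, so this is not set apart from the background. The difference of -0.91 was not called. It is given as a description, since the skin libraries at the floor have no spread and share 1 estimate of it with the tumours. The tumour effect did not differ detectably between genotypes for miR-132-3p, miR-212-3p or miR-212-5p (limma interaction, adjusted p from 0.888 to 0.983). In that comparison limma called 0 of 544 miRNAs (0%), with 41 at an unadjusted p under 0.05.

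**Figure D4:**
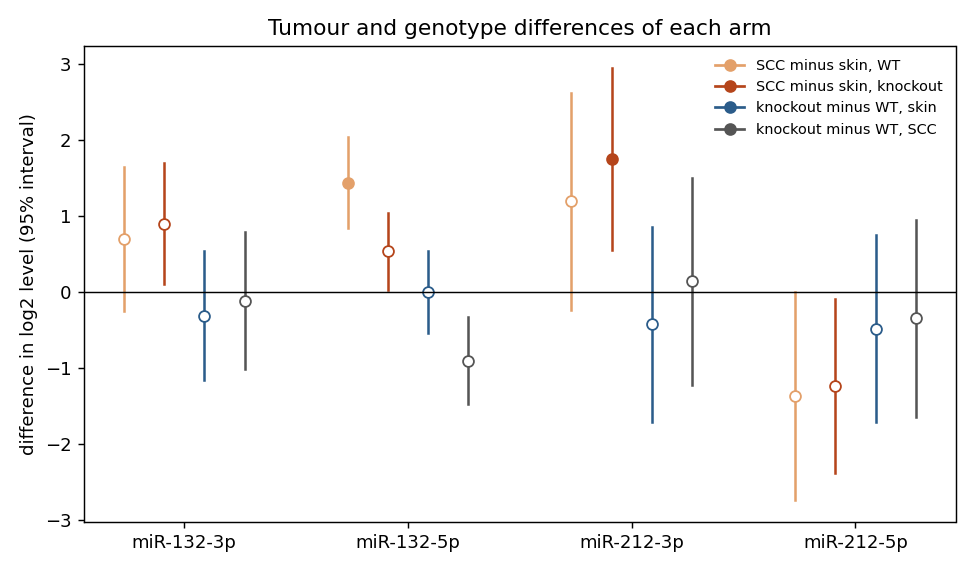
Differences in log2 level (y axis) of each arm between SCC and skin in each genotype and between genotypes in each tissue. Points are limma estimates, lines are 95% intervals, and filled points have an adjusted p under 0.05. Filled points are those of miR-132-5p in WT mice (1.44), which rests on skin at the floor and is not counted as a call, and miR-212-3p in knockout mice (1.75).

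Over the groups, miR-132-3p ran from 7.53 ± 0.75 in knockout skin and 7.85 ± 0.26 in WT skin to 8.43 ± 0.40 in knockout SCC and 8.55 ± 0.15 in WT SCC (mean ± SD of log2 levels; n = 3, 3, 4 and 2). miR-212-5p ran in another order, from 4.39 ± 0.75 in knockout SCC and 4.74 ± 0.60 in WT SCC to 5.63 ± 0.08 in knockout skin and 6.11 ± 0.94 in WT skin. Between the genotypes of the same tissue, neither arm had a called difference. Group means that include the floor, as for knockout SCC here, are upper limits.

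The nearest other miRNA with rows in the table is miR-22, whose hairpin lies 290 kb away on the same strand (chr11:75463716-75463810). It is an abundant miRNA of many tissues. miR-22-3p was at 0.06 ± 0.20 (adjusted p = 0.818) and miR-22-5p at 0.52 ± 0.21 (adjusted p = 0.0740) in the averaged comparison, so neither arm was called. miR-22-5p was higher in all 6 tumours than in any skin library. The share of all tested miRNAs with such a separation was not counted, so it is not read as a result about miR-22. The further neighbour miR-3971, at 378 kb, was listed in the table but not tested.

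Correlations were taken over 436 miRNAs that exceeded the floor in 6 or more libraries. Those whose log2 levels followed miR-132-3p most closely over the 12 libraries were miR-31-5p (Pearson r = 0.92), miR-31-3p (0.91), miR-324-3p (0.90), miR-18a-5p (0.87) and miR-106b-5p (0.86). For miR-212-3p they were miR-98-3p (0.93), miR-17-5p (0.92), miR-18a-5p (0.91), miR-20a-5p (0.89) and miR-18a-3p (0.88). For miR-212-5p, added after its values were seen, they were miR-145a-3p (0.90), miR-26a-5p (0.90), miR-409-5p (0.88), miR-199b-5p (0.87) and miR-497-5p (0.86). The lists of the miR-212 arms had no miRNA in common. The 12 points fall into skin and tumour, so these values are a description of that split as well as of each miRNA.

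Other miRNAs known from skin wounds were given by a list of 23, of which 22 were tested. In the averaged comparison 9 were called higher and 7 lower, where 20.4% and 21.5% of all tested miRNAs were. The median was 0.46 against 0.04 for all tested. By p, the leading ones were the inflammation-linked miR-146a-5p (-2.50), the keratinocyte miRNA miR-205-5p (1.55), miR-21a-5p (2.91) and miR-100-5p (-3.14), whose adjusted p-values lay between 8.0e-06 and 1.1e-04. miR-21a-5p was the most abundant miRNA, at 20.00, in WT SCC replicate 1 and in all 4 knockout SCC libraries. Libraries share nearly the same set of levels, so this top level limits its change and its spread. The wound miRNA miR-155-5p was at the floor in all 12 libraries. This list therefore held large changes in both directions. The 4 named were picked by p, so they do not show where miR-132-3p stands within the list.

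Markers of cells in which the cluster is known gave these values. Over all tested miRNAs, 20.4% were called higher and 21.5% lower, which is the background for each list of markers. Of 12 neural miRNAs with rows, 8 were tested (median -1.05), with miR-138-5p called higher and 5 called lower in tumours. The higher value of miR-129-5p is not counted as a call, because this miRNA was at the floor in every skin library. So was miR-129-2-3p, and both enter the median. The neuronal miR-124-3p was at the floor in all 12 libraries. The leading ones were miR-338-3p (-2.36), miR-218-5p (-1.78), miR-138-5p (2.66) and miR-128-3p (-1.23). Summed linear levels of the neural list were 4920 to 5770 in skin, 4540 to 5850 in WT SCC and 1370 to 7440 in knockout SCC. Of the endothelial arms, miR-126-5p was called higher (0.50 ± 0.17, adjusted p = 0.0324) and miR-126-3p was not (0.27 ± 0.16, adjusted p = 0.190), and their sum was 47400 to 63000 in skin and 59900 to 92500 in SCC.

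Leukocyte miRNAs gave 2 higher and 2 lower of 7 tested (median 0.09), with sums of 65500 to 92400 in skin and 32100 to 94300 in SCC. Keratinocyte miRNAs, the defining ones of this tissue, were above the floor in every group, with 1 higher and 2 lower of 4 and sums of 269000 to 387000 in skin and 310000 to 569000 in SCC. Striated muscle miRNAs fell in 4 of 5 cases, with sums of 66500 to 90000 in skin and 4750 to 31500 in SCC. Of the 4 erythroid miRNAs 2 were higher, with sums of 35200 to 75000 in skin and 17100 to 98200 in SCC. Both melanocyte miRNAs were lower, with sums of 2330 to 6500 in skin and 88.4 to 1700 in SCC. The part of any of these cell types in the changes of the 4 arms was not tested.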

How the data were processed

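Small RNA of untreated skin and ultraviolet-induced SCC was measured in 12 libraries, grouped by genotype and tissue from the labels. The authors deposited 1 table of normalized log2 values, with 1251 rows and 1 column per sample. Per the submitters' processing notes, mm10 was the build. For the aligner, counting method and miRBase release, no entry is given in the sources used here. Every library has nearly the same set of log2 levels, as after quantile normalization, and none is below a linear level of 10 (the floor). Counts cannot be recovered, so depth and counting error are unknown, and levels near the floor are the least precise.

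The tests used limma 3.58.1 (R 4.3.3) on 544 miRNAs, with a mean per group, trended and robust moderation, and Benjamini-Hochberg adjustment within each contrast. The fit was tested on simulated data. Single values were compared by exact permutation of samples. The named miRNAs are the members, up to 4 per list by p, seed and chromosome neighbours, and the 5 closest by correlation. Members and lists were chosen with earlier results of these data known. The lists' miR-126a and miR-486a arms were read from rows named miR-126 and miR-486, and miR-126b-5p of the endothelial list was not analysed here. Sequences and coordinates are from RefSeq (GRCm38.p6), and host genes from GENCODE M21. Alternatives covered filters, pseudocount, scaling, moderation, library weights, the groups fitted and each library left out.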

Additional observations from a re-analysis of the deposited data

How the results depend on the processing

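Of the results on the 4 arms and their differences, no called one reversed under the alternatives run, while some uncalled genotype differences changed sign when a library was left out, and 4 results crossed the threshold when the method was changed. Library quality weights ended the calls of miR-132-3p (0.65) and miR-212-3p (1.25) in the averaged comparison and of miR-212-3p in knockout mice (1.60). Keeping floor libraries moved miR-132-3p minus miR-212-3p to -0.72, past the threshold. Filters, a pseudocount of 10, median-ratio scaling, plain moderation and fitting only the groups compared changed no call of a member. miR-132-5p gave no value under the filter of 6 libraries. Leaving out each library gave averaged changes of 0.58 to 0.93 for miR-132-3p, 1.16 to 1.69 for miR-212-3p and -1.57 to -1.09 for miR-212-5p. In WT mice it gave 0.57 to 0.82 for miR-132-3p, 0.57 to 1.63 for miR-212-3p and -1.91 to -0.95 for miR-212-5p, none of them called. In knockout mice it gave 0.47 to 1.17 for miR-132-3p, 0.36 to 0.71 for miR-132-5p and 1.35 to 2.04 for miR-212-3p. Fewer samples entered these fits, and the cause of each lost call was not tested.

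Counts over all tested miRNAs moved more. In WT mice 48 higher and 51 lower became 12 and 18 without WT SCC replicate 1, and the 48 became 30 and 27 without WT skin replicates 1 and 2. Knockout against WT skin went from 0 calls to 20 higher and 2 lower with library quality weights, and to at most 2 higher when a library was left out. Knockout against WT SCC went from 1 lower to 10 lower without WT SCC replicate 2, and otherwise gave 0 or 1 in each direction. The interaction went from 0 to 10 lower without that library and to 1 higher without knockout SCC replicate 2. No paired analysis was possible because the numbers in the sample titles run through all libraries of a tissue and tie no skin library to a tumour. No library's depth is known, so a level at the floor is not evidence that an arm is absent.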
